A study of Mus musculus with 12 samples.

Results

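The region described here is the part of mouse chromosome 17 that flanks Slc29a1, the gene of the nucleoside transporter mENT1. Its members are the array probes that the deposited files place, in genome build mm7, with their lower coordinate inside a fixed window of nearly equal reach on each side of the gene. Slc29a1 itself and the probes of genes named H2- or Cyp were left out. The rule uses position and name only and takes 323 of the 41174 probes that are not controls. These probes carry 235 names, of which 167 are gene symbols. They run from -9.40 Mb (below) to 9.96 Mb (above) of the Slc29a1 probe, with 150 on the lower side and 173 on the upper side.

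Hearts and kidneys of 3 mice described as mENT1 knockout were compared with those of 3 wild type mice, and both genotypes had the FVB/N background. Total RNA of each organ was labelled with a single dye on its own Agilent mouse array, so that both tissues have 3 arrays per genotype, named by the letters a, b and c. How the knockout line was made, which stem cells it came from, how often it was backcrossed, and the ages of the mice are not given in the sources used here. No DNA sequence of either genotype was measured, and a low signal on such an array does not tell a scarce transcript from poor hybridisation.

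Equilibrative nucleoside transporters let adenosine and other nucleosides pass the cell membrane down their gradient. Slc29a1 lies close to the major histocompatibility complex, among genes of unrelated function. The lower end of the window reaches into the segment of the complex, with a group of TRIM genes, which encode ubiquitin ligases. A large array of olfactory receptor genes also stands on that side. On the other side stand Vegfa, the guanylyl cyclase activator genes Guca1a and Guca1b, and the TREM genes, a cluster of receptors carried mostly by myeloid cells. Genes near a targeted gene are mostly inherited together with it.

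Each probe is 60 bases long, and the middle 30 bases of those that carry the results are shown 5′ to 3′, so that the measured transcript piece can be located. Below Slc29a1 they are:

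Trim26, A_52_P353038, chr17:35010472-35010531, plus strand: agaatggatgtagtcatgacccacagaagt

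Trim26, A_52_P353031, chr17:35011141-35011200, plus strand: cactctttgttctagagttaatcatcttca

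Ppp1r11, A_51_P105320, chr17:35103055-35103114, minus strand: ctcagaaaaaggaaagggtgtctcatcccg

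Ptchd4, A_51_P415207, chr17:40364022-40364081, plus strand: tgggcaactgagcaaagaaaatgggcaatg

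Pla2g7, A_51_P447835, chr17:41727663-41731585, plus strand: aaggaaaggaaaaatgattacaatcaaggg

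Rcan2, A_52_P369415, chr17:42143611-42143670, plus strand: gatgccacaccagtcctcaactatgacctt

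The targeted gene and the probes above it are:

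Slc29a1, A_51_P289836, chr17:43714823-43714882, minus strand: ctgacagctccgactgatgcccgcttactc

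Klc4, A_51_P101573, chr17:44759516-44759575, minus strand: ttggagtcctctagagtagctgactgaggc

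Guca1a, A_51_P207751, chr17:45532108-45532167, minus strand: tcaagctctacgacgtcgacggcaacgggt

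1700001C19Rik, A_51_P439645, chr17:45549446-45549505, minus strand: gacaagcctactacgaattaagctatgttc

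Trem1, A_51_P398491, chr17:46387503-46387562, plus strand: tccatcatcttggggatgtgctctgcaccc

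Trem1, A_52_P415116, chr17:46389066-46389125, plus strand: atctcagtaggtttgtttcctgactgaaga

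Lrfn2, A_51_P229498, chr17:47238888-47238947, plus strand: atttgtggagtttccatggtgatgtttaca

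The Pla2g7 probe spans 3923 bases of the genome and so crosses an intron, as do 35 of the 323 members. The exon or untranslated part that each probe lies in was not determined, because no annotation of mm7 was used. The 2 Trim26 probes shown lie on the same strand, and another, which also crosses an intron, lies at chr17:35004526-35008075. GC content ran from 15% to 70% over the members, with a median of 43.3%.

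Going by the scanner files' labels, Slc29a1 was lower in the knockouts of both tissues. Its values, as log2 signal relative to the 75th percentile of each array, were 1.38, 0.59 and 1.53 on the knockout hearts, in letter order, and 3.15, 3.23 and 3.36 on wild type hearts. In kidney they were -1.43, -1.30 and -1.43 against 1.51, 1.27 and 1.62. The difference was -2.08 ± 0.26 in heart (SE, n = 3 and 3, limma adjusted p of 0.0377) and -2.85 ± 0.17 in kidney (adjusted p of 0.00717). With the letters a, b and c as a replicate block, neither tissue passed alone (adjusted p of 0.0658 in heart and 0.0979 in kidney), and the mean of both did (0.00195). With normexp background correction the adjusted p in kidney was 0.69, at a difference of -2.22, and quantile normalization gave 0.0571 in heart. In the authors' deposited table every column follows the array that shares its letter and tissue but carries the opposite genotype (r of 0.9998 or above across probes). Every direction here rests on the labels of the scanner files, and the labels of that table would reverse each one.

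All 8 heart muscle genes checked were above background on every heart and all 8 kidney tubule genes on every kidney, so the tissue labels held. The arrays differ in other ways that run with genotype. Knockout hearts were all on one slide and wild type hearts on another, so in heart the slides and the genotypes cannot be told apart. Knockout kidneys b and c shared a slide with wild type kidneys a and b, and values within that slide are given for kidney. Xist, which coats the silenced X chromosome of females, was above background on knockout hearts a and b and knockout kidney a only. That pattern goes against the knockout hearts and kidneys coming from the same 3 mice, or against their labels. The log2 of the summed signals of 7 thymocyte and T cell genes was 6.68 and 7.75 on knockout hearts a and b. It was 0.23 on knockout heart c and -0.50 to 0.47 on wild type hearts. That of 5 lung genes was 7.67 on knockout heart a and at most 0.54 on the other hearts. That of 8 liver genes was 1.59 to 2.47 on knockout hearts against -2.13 to -0.82 on wild type hearts. The part of the thymus, lung and liver transcripts in the results below was not tested, beyond the fits that leave arrays out. Sex by Xist was added to a fit, and slide entered fits of kidney and of both tissues. No wild type array showed Xist. Within a tissue the fit with sex thus takes the genotype difference from knockout heart c, or from knockout kidneys b and c. It is therefore no check apart from leaving arrays out, and sex cannot be told apart from these arrays.

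In heart, Guca1a and Trem1 were the 2 members that passed limma with Benjamini-Hochberg adjustment over all probes, and both were lower in the knockouts. That is 1.0% of the 200 members tested, where 0.47% of all 26176 probes tested in heart were called and 0.0649% were called lower. In kidney none of 201 members was called at an adjusted p under 0.05 by limma, where 0.0969% of all probes were called. Without adjustment, 38 of them (18.9%) had a p under 0.05 in kidney and 52 (26.0%) in heart, beside 13.3% and 16.4% of all probes tested. A mean over both tissues called 8 of the 188 members tested in both (4.26%), beside 0.811% of all probes. Of these, 3 were higher (all probes: 0.513%) and 5 lower (all probes: 0.298%). The 3 higher were Ppp1r11, Trim26 and Lrfn2, and the 5 lower were Guca1a, 1700001C19Rik, Ptchd4, Rcan2 and Klc4. No member passed the test of the heart difference against the kidney difference by limma (0.426% of all probes did), while 35 (18.6%) had an unadjusted p under 0.05, beside 15.9% of all probes. The heart count was 0 without knockout heart a or any 1 of the wild type hearts, 1 without knockout heart b and 25 without knockout heart c, when 11.0% of all probes were called. A replicate block of the letters left 0 in heart (0.367% of all probes) and 3 for both tissues (94 of 24180 probes). That second count ran from 3 to 15 when 1 array was left out, and Guca1a, Ppp1r11 and Trim26 kept their call in all 12 of these fits. It was 3 without wild type heart a or b, knockout kidney c or wild type kidney a, 4 or 5 without knockout heart a or b, wild type heart c, knockout kidney b or wild type kidney b or c, and 15 without knockout heart c. The count for the difference between tissues was 19 without knockout heart c.

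A reading without a variance estimate asks whether the 3 knockout values all lie on one side of the 3 wild type values. They did so in heart for 68 of the 200 members tested (34.0%), where the share was 22.8% of all probes and 28.8% of the 1010 probes tested on the rest of chromosome 17. Lower members made up 43 of the 68 (21.5% of those tested, all probes 14.0%) and higher ones 25 (12.5%, all probes 8.77%). In kidney the groups did not overlap for 46 of 201 members (22.9%), beside 21.5% of all probes and 25.8% on the rest of chromosome 17. There 29 were higher (14.4%, all probes 10.3%) and 17 lower (8.46%, all probes 11.2%). Median scaling in place of the 75th percentile moved the median of all heart probes from -0.08 to -0.24, and with it 59 members lay apart lower and 12 higher in heart, and 7 lower and 28 higher in kidney. With normexp the kidney counts were 14 lower and 9 higher. With fewer arrays groups overlap less easily. Without knockout heart c the heart share was 55.5% of members and 54.4% of all probes. Without knockout kidney a the kidney share was 43.3% of members and 39.9% of all probes, and without wild type kidney b 34.8% and 28.4%. The kidney share of members is thus near its background. The heart share is above its background by a margin that no test here measures. That margin nearly closed without knockout heart c and was narrower without wild type heart a. The heart share of members stayed above that of all probes whichever single heart was left out. It was 45.5% beside 29.7% without knockout heart b, and 35.5% beside 27.7% without wild type heart b.

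**Figure D1:**
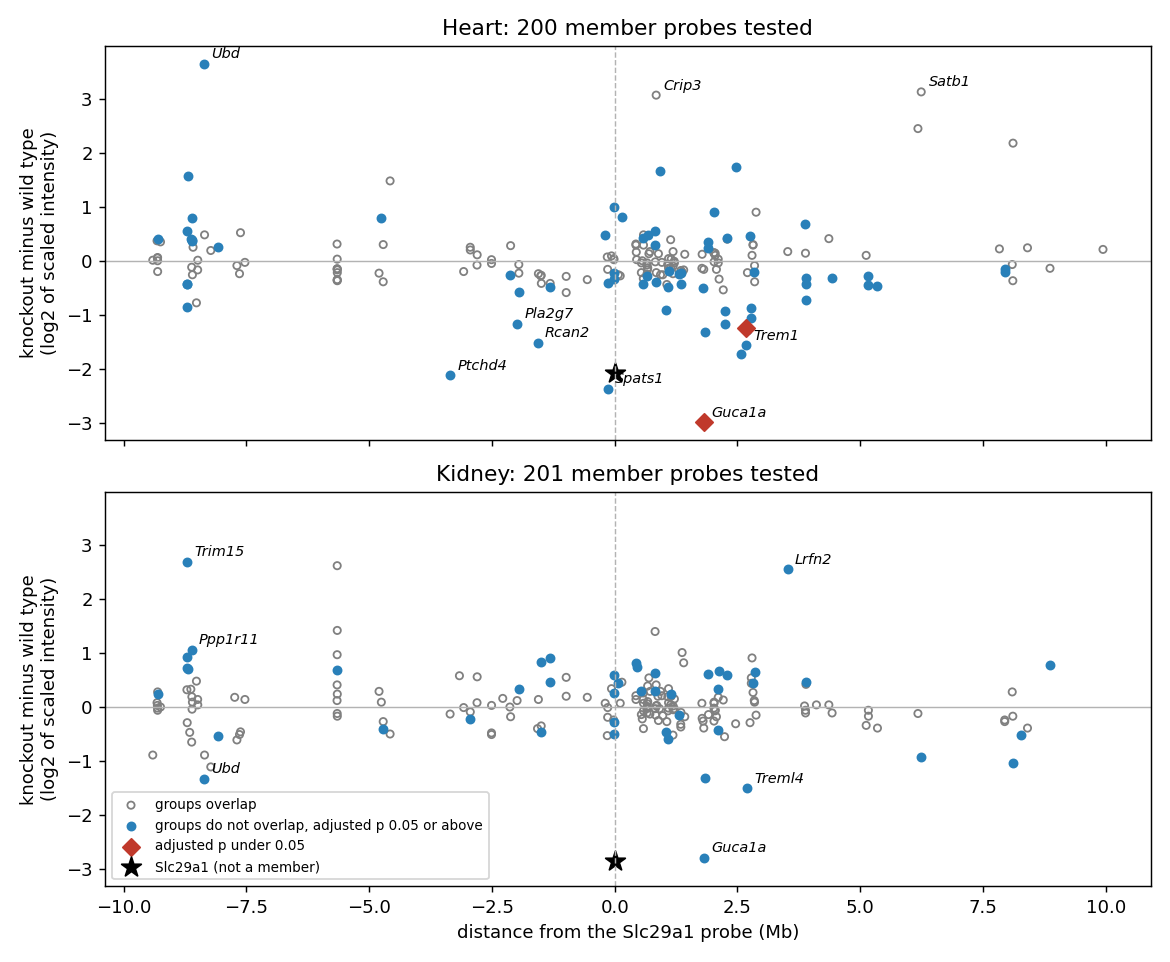
Knockout minus wild type difference of every member probe tested (vertical axis, log2 of scaled intensity) against its distance from the Slc29a1 probe (horizontal axis, Mb), for heart above and kidney below. Filled points have 3 knockout and 3 wild type values that do not overlap, diamonds passed limma, and the star is Slc29a1, at -2.08 and -2.85. Guca1a lies at -2.99 in heart and -2.79 in kidney.

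Guca1a encodes a calcium sensor that activates retinal guanylyl cyclase in photoreceptors. It showed the largest fall of all members called, and the heart difference minus the kidney difference was -0.20 (limma adjusted p of 0.9). Knockout hearts had values of -5.58, -6.37 and -5.08, against -2.49, -2.34 and -3.24 on wild type hearts. On knockout kidneys it was at -7.51, -6.43 and -5.94, against -3.72, -4.16 and -3.64 on wild type kidneys. Each knockout value lay below each wild type value of its tissue, and the groups were more than 1 unit apart in both. The heart difference was -2.99 ± 0.38 (SE, n = 3 and 3), a signal 7.94-fold lower, and limma gave an adjusted p of 0.0406. The kidney difference was -2.79 ± 0.40, with an adjusted p of 0.0771, and -2.25 within the slide that holds both genotypes (adjusted p of 0.0572). Over both tissues it was -2.89 ± 0.30 (adjusted p of 0.0011), and this call held with the letters as a replicate block (0.023), which ended the heart call (0.113). In kidney 2 of 3 knockout arrays were above background for it, so the size there is partly set by the background. After normexp background correction, which adds an offset of 50 to intensities, the heart difference was -1.19 (adjusted p of 0.131) and the kidney difference turned to 0.11, and the mean no longer passed (0.695). Leaving out 1 heart array at a time gave heart adjusted p from 0.00769 without knockout heart c to 0.172 without wild type heart b, and of these only the fit without knockout heart c stayed under 0.05.

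The neighbours of Guca1a did not all move with it. Guca1b, which encodes a second cyclase activator and whose probe lies next to that of Guca1a, differed by -0.16 ± 0.14 in heart and -0.39 ± 0.30 in kidney (limma adjusted p of 0.556 and 0.616). It was above background on all 12 arrays. 1700001C19Rik, on the other side of Guca1a and on the same strand, was lower in both tissues. Its values were -7.50, -6.58 and -6.65 on knockout hearts against -5.37, -5.53 and -5.84 on wild type hearts. In kidney they were -7.78, -6.35 and -6.88 against -5.96, -5.52 and -5.62, so the groups did not overlap in either tissue. The differences of -1.33 ± 0.28 and -1.31 ± 0.37 did not pass alone (adjusted p of 0.14 and 0.229), while their mean of -1.32 ± 0.25 did (0.0377). The mean did not pass with the replicate block (0.0703) or with slide as a random block (0.0858). This probe was above background on 1 of 3 knockout arrays in each tissue, its kidney difference turned to 0.70 and its mean to 0.26 with normexp, and a second probe of the gene was above background on no array. Prph2, a photoreceptor membrane gene of the same region, was not well above background on any array.

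Trem1, a receptor that amplifies inflammatory signals in neutrophils and monocytes, fell in heart. Its probe A_51_P398491 was at -6.71, -7.05 and -6.87 on knockout hearts and at -5.48, -5.53 and -5.89 on wild type hearts. The groups did not overlap, and the difference was -1.24 ± 0.17 (SE, n = 3 and 3, limma adjusted p of 0.0491). Only 1 of 3 knockout hearts was above background for it, so it entered the test through the wild type hearts and was not tested when every array had to be above background. The second Trem1 probe gave -1.57 ± 0.53 (adjusted p of 0.266), also without overlap. In kidney neither probe was tested, since 1 wild type kidney at most was above background. The heart call ended with the replicate block (adjusted p of 0.0961), with normexp (difference -0.16) and when any 1 heart other than knockout heart c was left out (0.104 to 0.233).

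Of the 5 other TREM probes tested in heart, 4 were below wild type in the knockouts, 3 of them without overlap. Over all probes 14.0% lay apart lower in heart. The median difference of these 5 was -0.88 beside -0.08 over all probes. None of the 5 passed the test. Trem3 was at -6.40, -6.79 and -6.26 on knockout hearts against -5.22, -4.71 and -5.69. Trem2, a receptor for lipids on macrophages and microglia, was at 1.76, 1.93 and 2.75 against 2.92, 3.32 and 2.83 by the brighter of its 2 probes. Knockout heart c stood nearest the wild types for both Trem2 probes. Trem2 differed by -0.88 ± 0.29 and -1.06 ± 0.29 and Trem3 by -1.28 ± 0.28, with adjusted p of 0.258, 0.223 and 0.147 by limma. Treml4 (-0.22 ± 0.26) and Treml1 (0.10 ± 0.43), a receptor of platelets, had groups that overlapped. Median scaling put Treml1 below wild type as well, and with normexp the median of the whole cluster, Trem1 included, was -0.21 where it had been -1.06.

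In kidney the cluster showed another pattern, with 3 of 4 probes higher and a median of 0.49 beside -0.03 over all probes. Treml4 stood against it at -4.16, -3.01 and -3.78 on knockout kidneys and -2.24, -1.79 and -2.41 on wild type kidneys, a difference of -1.50 ± 0.33 without overlap (adjusted p of 0.165), and -1.38 within the slide that holds both genotypes. Its kidney difference was -0.18 with normexp. The Trem2 probes gave 0.54 and 0.44 with overlapping groups. The difference between tissues was -1.60 and -1.32 for Trem2 and did not pass (adjusted p of 0.11 and 0.158 by limma). Of 10 macrophage and neutrophil genes outside the region, all were above background on every array. The log2 of their summed signals was 6.53 to 6.85 on knockout hearts and 6.86 to 7.06 on wild type hearts, and 4.09 to 4.88 and 4.84 to 5.39 in kidney. Their median log2 value was 0.84, 0.95 and 1.31 on knockout hearts against 1.49, 1.49 and 0.80, with overlap. In kidney the medians were -2.05, -1.83 and -1.89 against -0.92, -0.63 and -1.20, without overlap. The part of these levels in the TREM values was not tested. In whole tissue, fewer cells of a type and less RNA per cell cannot be told apart.

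Pla2g7 encodes an enzyme, secreted largely by macrophages, that inactivates platelet-activating factor. It was at 0.06, 0.28 and 0.07 on knockout hearts and 1.54, 1.29 and 1.08 on wild type hearts. The 3 knockout hearts lay close together and well below the wild types. The difference of -1.17 ± 0.16 (2.25-fold) had an adjusted p of 0.0524 by limma and so was not called. It passed with median scaling (0.0374), with 1 probe per gene (0.0463) and without knockout heart c (0.0208). It did not pass with the replicate block (0.102), quantile normalization (0.0665) or normexp (0.0714), nor when any other single heart was left out. In kidney the groups overlapped, at -0.20, -0.79 and -1.01 against -0.78, -1.10 and -0.48, a difference of 0.12 ± 0.27. The heart difference minus the kidney difference was -1.29, with an adjusted p of 0.128.

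**Figure D2:**
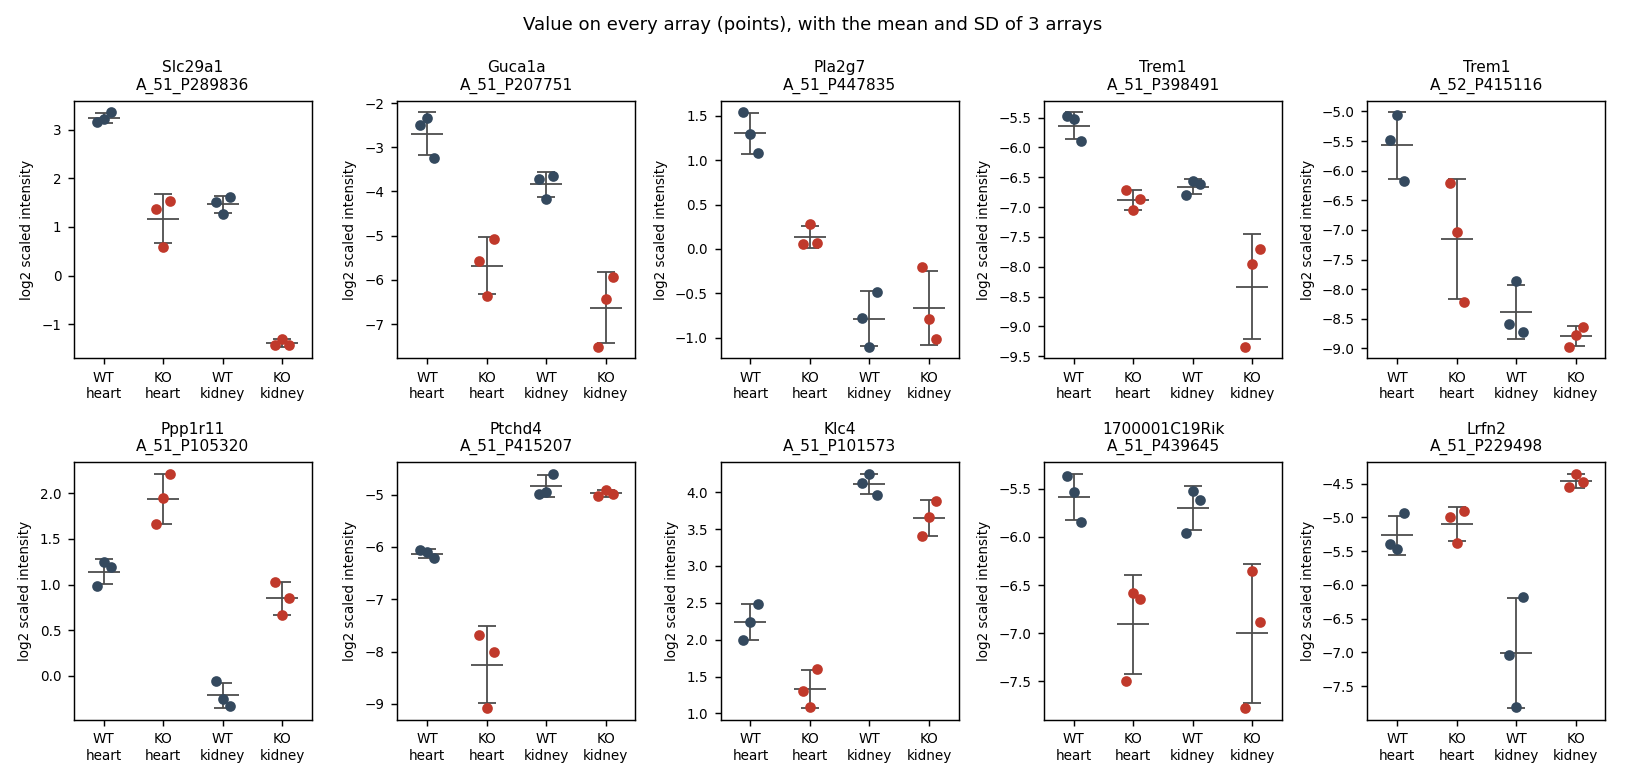
Value on each array (points, log2 intensity relative to the array's 75th percentile) with the mean and SD of 3 arrays, for Slc29a1 and 9 member probes; WT is wild type and KO knockout. Guca1a and 1700001C19Rik are lower in both knockout tissues, Pla2g7 and Trem1 in heart, and Ppp1r11 is higher in both.

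**Figure D3:**
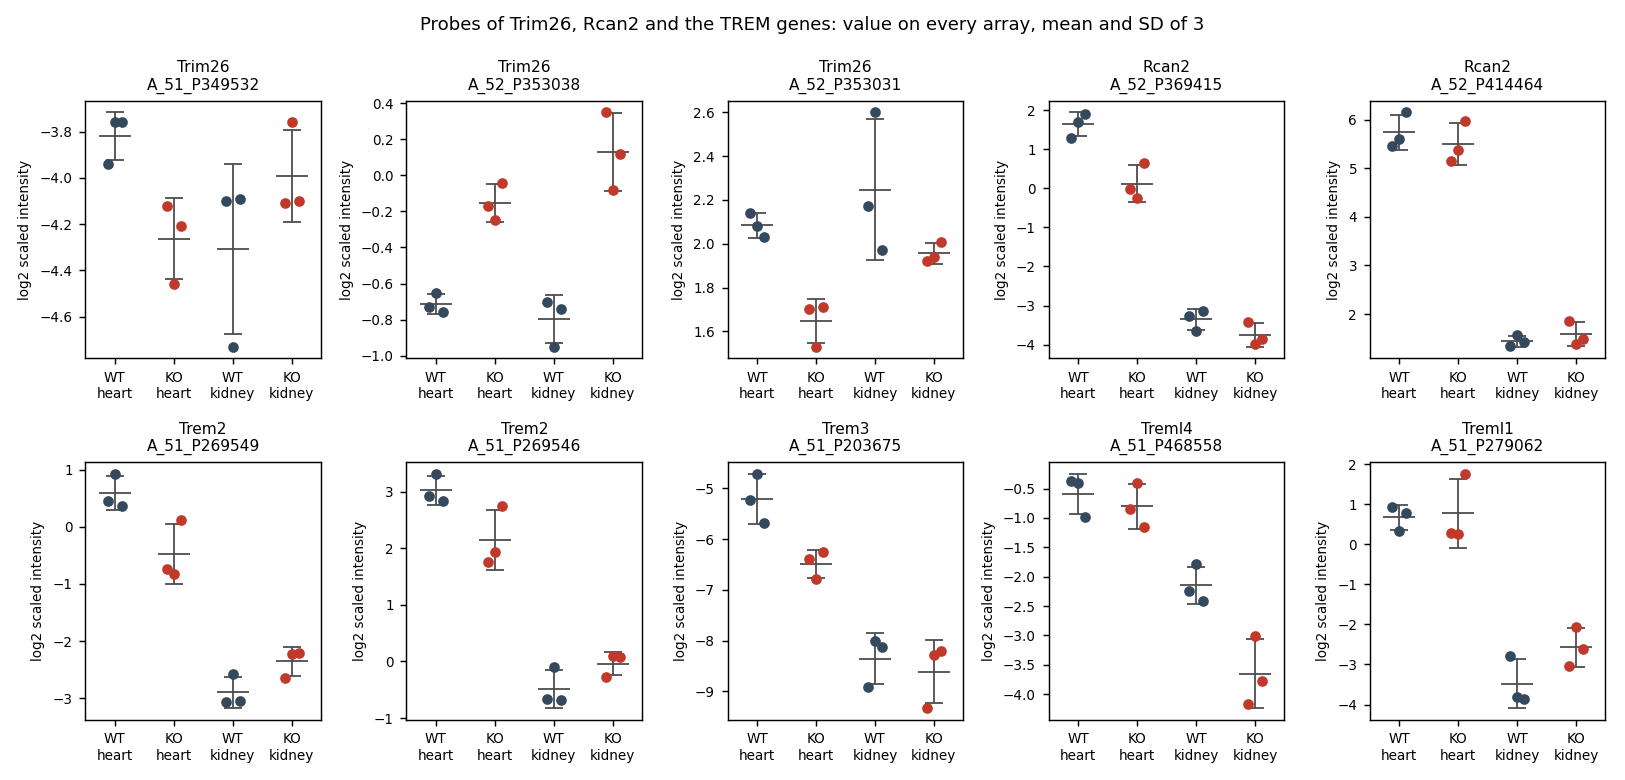
The same plot for every probe of Trim26, Rcan2, Trem2, Trem3, Treml4 and Treml1. The Trim26 probe A_52_P353038 is higher in both knockout tissues and the other 2 are lower in knockout hearts, and knockout heart c lies nearest the wild types for both Trem2 probes.

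At the lower end of the window the members called for the mean of both tissues, Ppp1r11 and a probe of Trim26, were higher. They lie in the segment of the major histocompatibility complex, at -8.612 and -8.704 Mb from Slc29a1. Ppp1r11, an inhibitor of protein phosphatase 1, was at 1.66, 1.95 and 2.21 on knockout hearts against 0.99, 1.25 and 1.19, and at 1.03, 0.67 and 0.85 on knockout kidneys against -0.06, -0.25 and -0.33. No knockout value reached down to a wild type value in either tissue. The differences were 0.80 ± 0.18 in heart and 1.06 ± 0.17 in kidney (adjusted p of 0.156 and 0.0976 by limma). Their mean of 0.93 ± 0.12, 1.9-fold, passed with an adjusted p of 0.0045. It also passed with the replicate block (0.0258), with slide as a random block (0.0132) and without knockout hearts a and b (0.0165), but not with normexp (0.78, adjusted p of 0.119).

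Trim26, a ubiquitin ligase, rose by one probe and not by the others. A_52_P353038 was at -0.17, -0.25 and -0.04 on knockout hearts against -0.73, -0.65 and -0.76, and at 0.35, -0.08 and 0.12 on knockout kidneys against -0.70, -0.95 and -0.74. Its groups did not overlap in either tissue, and the mean difference was 0.74 ± 0.10 (limma adjusted p of 0.00692, and 0.0472 with the replicate block). It did not pass with median scaling (0.0511), sex as a covariate (0.0704) or normexp (0.119). The probe A_52_P353031, from the same strand of the same gene, was at 1.70, 1.53 and 1.71 on knockout hearts and 2.14, 2.08 and 2.03 on wild type hearts, the opposite order. It gave -0.44 ± 0.13 in heart and -0.29 in kidney, where the groups overlapped. The third probe gave -0.44 ± 0.15 in heart, without overlap, and 0.32 in kidney. These 3 probes of one gene therefore gave no single direction.

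Other genes of that segment varied between arrays. Trim10 lay apart and higher in both tissues, by 1.58 ± 0.51 in heart and 0.71 in kidney, and knockout heart c was its highest heart at -0.50. Trim15 was at -4.34, -6.42 and -6.71 on knockout kidneys and -8.35, -8.25 and -8.95 on wild type kidneys, where it was not well above background. Its signal was at least 1.68-fold higher in knockout kidneys, counted against the lowest signal above background (adjusted p of 0.177 by limma). Ubd, a ubiquitin-like protein that cytokines induce, was at 1.72, 2.47 and -2.10 on knockout hearts against -2.68, -2.50 and -3.66. Of the 15 tested probes of the non-H2 genes listed for this segment, 7 lay apart higher in heart and 2 lower, and 5 of 17 lay apart higher in kidney and 1 lower. Median scaling gave 3 higher and 3 lower in heart, so no direction held there, and 6 higher and 1 lower in kidney. Over all probes 8.77% lay apart higher and 14.0% lower in heart, and 10.3% higher and 11.2% lower in kidney. None of the segment's probes was called in a single tissue. Olfactory receptor genes make up 40 members, of which 5 were tested in heart and 6 in kidney, with overlapping groups in each.

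Between the complex and Slc29a1, Ptchd4 and Rcan2 were lower in heart. Ptchd4, which encodes a patched-domain membrane protein, was at -7.68, -9.08 and -8.00 on knockout hearts, where it was not well above background, and at -6.06, -6.10 and -6.22 on wild type hearts. Its heart signal was at least 1.55-fold lower, with a limma adjusted p of 0.082. In kidney the groups overlapped at -5.03, -4.91 and -4.99 against -4.98, -4.95 and -4.60. The mean over both tissues was -1.13 ± 0.21 (adjusted p of 0.0344), which thus rests on heart, and it turned to 0.24 with normexp. With the replicate block its adjusted p was 0.0877.

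Rcan2, a regulator of the phosphatase calcineurin, is measured by 2 probes that lie about 18 kb apart. A_52_P369415 was at -0.02, -0.26 and 0.64 on knockout hearts and 1.30, 1.70 and 1.91 on wild type hearts, a difference of -1.52 ± 0.28 without overlap (limma adjusted p of 0.108). A_52_P414464, which was brighter, had overlapping groups at 5.14, 5.37 and 5.97 against 5.46, 5.60 and 6.15. In kidney the first probe gave -0.40, which turned to 0.45 with normexp, and the second 0.14. The mean of the first over both tissues was -0.96 ± 0.19 (adjusted p of 0.0464, and 0.0557 with the replicate block).

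Above Slc29a1, Klc4, a light chain of the motor protein kinesin, was lower in both tissues. It was at 1.30, 1.09 and 1.60 on knockout hearts against 1.99, 2.24 and 2.49, and at 3.40, 3.67 and 3.88 on knockout kidneys against 4.13, 4.24 and 3.96. Its groups did not overlap in either tissue, and the mean difference was -0.68 ± 0.14 (limma adjusted p of 0.0486, and 0.119 with the replicate block). Cul7, a scaffold of a ubiquitin ligase that lies close by, had groups that did not overlap in either tissue and a mean of -0.54 ± 0.11 (adjusted p of 0.0649). Lrfn2, a synaptic adhesion protein, differed in kidney. It was at -4.55, -4.35 and -4.48 on knockout kidneys and -7.04, -7.81 and -6.18 on wild type kidneys, of which 1 was above background. The kidney difference was 2.55 ± 0.39 (adjusted p of 0.0885) and 3.01 within the shared slide, while in heart it was 0.17 ± 0.21 with overlapping groups and -0.03 after quantile normalization. The mean of 1.36 ± 0.24 passed (0.0278, and 0.0708 with the replicate block), and the difference between tissues of -2.38 did not (0.0674).

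**Figure D4:**
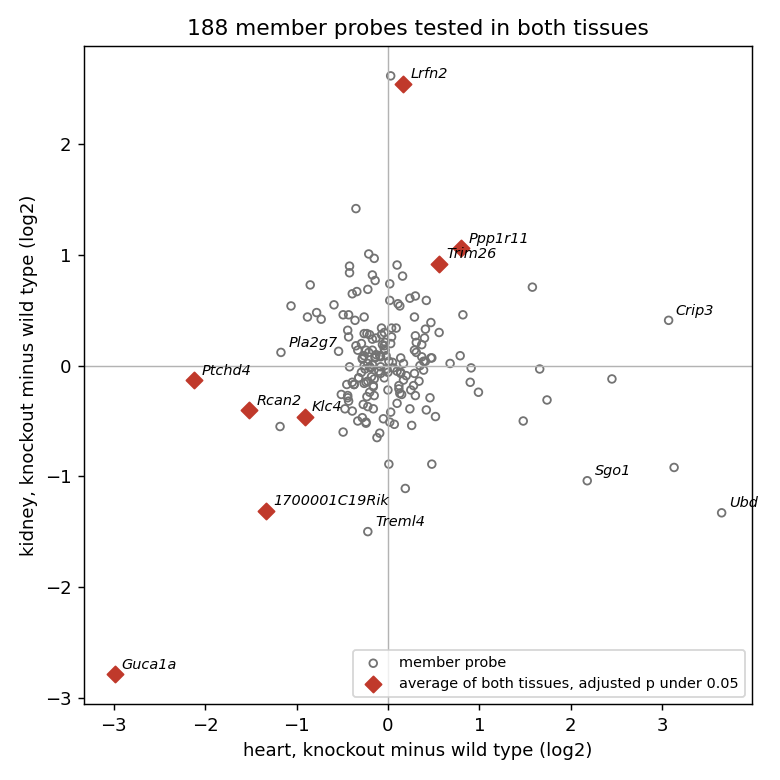
Difference in kidney (vertical axis, log2) against difference in heart (horizontal axis, log2) for the 188 member probes tested in both tissues; diamonds passed limma for the mean of both. Guca1a, at -2.99 and -2.79, is far from zero in both tissues, Ptchd4 in heart and Lrfn2 in kidney.

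Groups did not overlap in either tissue, with the same direction in both, for 15 of the 188 members tested in both (7.98%), beside 2.95% of all probes. Of these 8 were higher and 7 lower. Beside those already named they were Trim39, Zfp318, Foxp4, AI661453 and a probe named Isg15 among the higher, and Tbcc and 2 probes of Slc35b2, which encodes a Golgi sulfate donor transporter, among the lower. RefSeq places Isg15 on another chromosome, so that name is uncertain. The Slc35b2 probes gave -0.23 and -0.33 in heart and -0.28 and -0.50 in kidney, with limma adjusted p from 0.292 to 0.603. The opposite direction in the 2 tissues was seen for 5 members (2.66%), beside 2.17% of all probes: Ubd, Clic5, Daam2, AK047573 and the transcript ENSMUST00000077662. Clic5, a chloride channel protein of podocytes, differed by -0.49 in heart and 0.46 in kidney, and none of the 5 passed the test between tissues (adjusted p of 0.0874 to 0.153). Over the 188 members the heart and kidney differences correlated at 0.0134, beside -0.0976 over all probes, where points share arrays.

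The genes nearest to Slc29a1 showed no call. Of the 6 nearest named genes below that were tested, Hsp90ab1 (a heat shock chaperone), Slc35b2, Nfkbie (an inhibitor of NF-kB), Aars2, Spats1 and Cdc5l, none passed. Hsp90ab1, whose 2 probes are the nearest, gave 0.04 and 0.02 in heart with overlapping groups, and 0.26 and 0.59 in kidney without overlap, the first of which was -0.04 with normexp. Nfkbie was at 0.41, 0.83 and -0.34 on knockout hearts against -0.57, -0.55 and -0.93, a difference of 0.99 ± 0.31 (limma adjusted p of 0.247), with the knockout hearts a and b highest. Spats1, a gene of spermatogenesis, was above background on all wild type hearts and no knockout heart, at least 3.66-fold lower with an adjusted p of 0.118. Of the 6 nearest above, Tmem63b, Mrpl14, Vegfa, Mrps18a, Rsph9 and Mad2l1bp, none passed either. The 3 probes of Vegfa, the vascular growth factor, gave 0.16 to 0.31 in heart with overlapping groups, the smallest of which was -0.01 after median scaling, and 0.14 to 0.81 in kidney. The kidney groups were apart for the Vegfa probe at 0.81 alone. Within 1 Mb on either side no member was called in either tissue or for their mean.

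By distance, the share of tested members that lay apart in heart was 42.9% of 14 in the first Mb below Slc29a1 and 25.7% of 35 in the first Mb above. It was 38.5% of 13 and 34.0% of 47 between 1 and 2.5 Mb, 15.4% of 13 and 56.5% of 23 between 2.5 and 5 Mb, and 30.0% of 40 and 33.3% of 15 beyond 5 Mb. The highest share, from 2.5 to 5 Mb above, holds the TREM cluster, which gave 5 of its 13 probes apart. In kidney the shares ran from 13.3% between 2.5 and 5 Mb below to 41.7% of 12 between 1 and 2.5 Mb below. The shares thus did not fall steadily with distance in either tissue, and windows of under 20 probes carry little weight. Along the whole of chromosome 17, with Slc29a1 left out, the stretch from 30 to 40 Mb had 37.0% of its probes apart in heart and 38.2% in kidney. It holds the major histocompatibility complex and all members below -5 Mb. It had 14 of 303 and 10 of 304 tested probes called, beside 0.47% and 0.0969% of all probes. None of these called probes was a member. The stretch from 40 to 50 Mb had 35.8% and 23.6% apart, with 2 and 0 of 148 called. Over the other stretches of 10 Mb the heart share ran from 15.2% (50 to 60 Mb) to 34.9% (10 to 20 Mb). In kidney it ran from 12.1% (80 to 90 Mb) to 29.8% (50 to 60 Mb), leaving out the last stretch, with 3 probes tested. A heart share near that of the members (34.0%) was thus also seen outside their window.

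**Figure D5:**
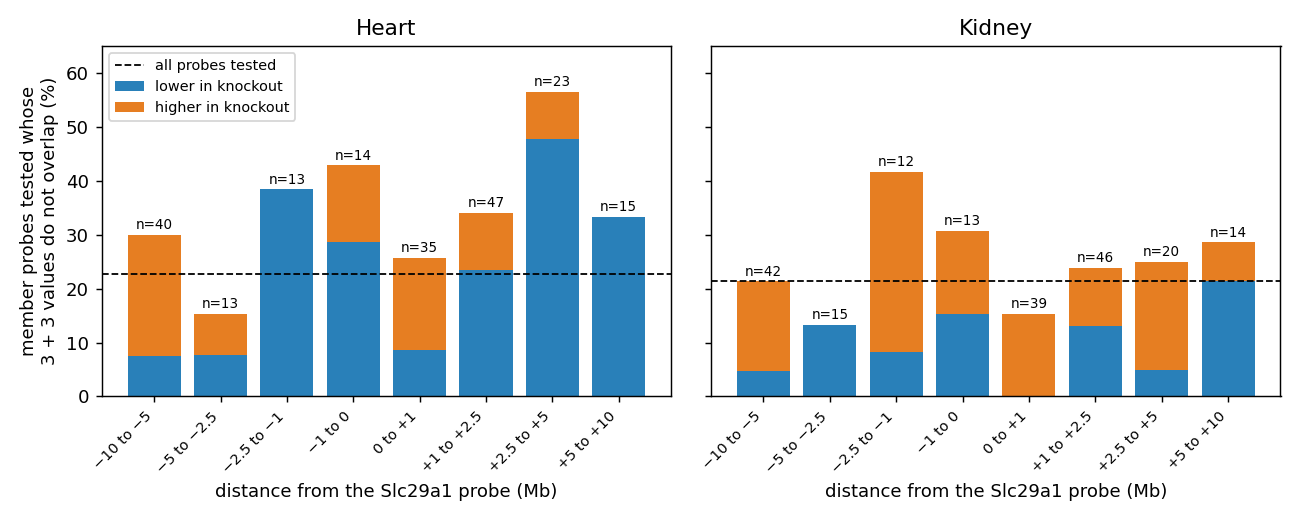
Percent of member probes tested whose 3 knockout and 3 wild type values do not overlap (vertical axis), by distance from the Slc29a1 probe (horizontal axis, Mb), split into lower and higher in knockout; n is the number tested and the dashed line the share of all probes, 22.8% in heart and 21.5% in kidney. The tallest heart bar is 56.5% from 2.5 to 5 Mb above, and the kidney bars stand on both sides of the line.

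Some members were high on knockout hearts a and b, the arrays on which thymocyte genes were high. Without knockout heart c, 12.5% of members and 11.0% of all probes were called in heart. Of the members 10 were higher. They include both probes of Satb1, a chromatin organiser of thymocytes, as well as Crip3, Ubd, Sgo1 and Ccnd3. For all 10 knockout heart c itself stood less than 1 log2 unit above the wild type mean. The fit that picked them left that array out, and none of them passed with it, so this partly follows from the choice. BC071254 was within 1 unit on knockout hearts a and b as well, at 0.63 and 0.65. Satb1 was at 3.48, 4.53 and 0.17 on knockout hearts against 0.09, 0.20 and 0.52, by probe A_51_P324228. Crip3 was at 0.81, 1.58 and -4.19 against -3.65, -3.97 and -3.38. The part of thymocyte RNA in these values was not tested, and neither gene passed with all hearts (limma adjusted p of 0.306 and 0.325). The 15 members called lower without knockout heart c include Guca1a, Spats1, Ptchd4, Rcan2, Pla2g7, Klc4, Trem3, both Trem2 probes and one of Trem1. On knockout heart c, 7 of the 15 lay less than 1 log2 unit below the wild type mean. Among these 7, Mrps10 and Tbc1d5 were that near on knockout hearts a and b as well. Without knockout hearts a and b, Guca1a and Trem1 differed by -2.40 and -1.23 in heart, but neither passed (adjusted p of 0.157 and 0.184).

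The other gene groups of the region gave no call in either tissue. Over all probes 22.8% lay apart in heart and 21.5% in kidney, and 0.47% and 0.0969% were called. For 20 tested probes of transcription regulators, among them Runx2, Srf, Tfeb and Foxp4, the median was 0.13 in heart, with 4 apart higher and 2 lower, and with median scaling it was -0.03. The 7 tested probes of mitochondrial genes, such as Mmut and Mrps10, had medians of -0.28 in heart and -0.26 in kidney, with 1 apart lower in each. Genes of podocytes and membrane scaffolds, such as Cd2ap and Clic5, had 6 of 7 probes higher in kidney (median 0.46, 2 apart) and 5 of 7 lower in heart (median -0.13, 1 apart). The 5 tested probes of phospholipase, phosphodiesterase and protease genes, which include Pla2g7, had medians of -0.28 and -0.18. Those of DNA repair and nuclear transport genes lay between -0.25 and 0.48 with none apart.

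Genes measured by several probes allow the probes of a gene to be compared. Of 45 genes with 2 or more probes tested in heart or in kidney, the probes differed in sign in 13 in heart and 18 in kidney. Not all 45 could be compared in each tissue, since Trem1 had no tested probe in kidney and Ttbk1 none in heart. Some sign changes lie near zero, such as -0.02 and 0.15 for Bysl in heart. The same count over all genes was not made. In heart 3 genes, Trim26, Mocs1 and Zfp318, had probes that lay apart in both directions, and in kidney none did. Zfp318 gave 0.30 by one probe and -0.39 by another, and Mocs1, an enzyme of molybdenum cofactor synthesis, 0.68 and -0.32. Guca1a, Ppp1r11, Pla2g7, Klc4, Ptchd4 and Lrfn2, by contrast, each rest on 1 tested probe. No second measurement of these transcripts is thus at hand.

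Of the 323 members, 200 were tested in heart and 201 in kidney, 188 of them in both, 12 in heart only and 13 in kidney only. The remaining 110 were tested in neither, and 68 were above background on no array. Above-background members numbered 193 to 220 per array. In heart 11 and in kidney 23 members entered the test through 1 group alone, so for these a difference was partly built into the filter. Trem1, Trem3, Spats1, Ptchd4 and 1700001C19Rik in heart and Guca1a, Lrfn2, Trim15 and 1700001C19Rik in kidney are among them.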

How the data were processed

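Scanner intensities were deposited for 12 arrays, per the file headers from Feature Extraction 9.5.3.1 by Agilent, version 9.1 per the submitters' processing notes. The authors' deposited table of log2 values, centred probe by probe within a tissue as tested on its values, was used as an alternative only, with its columns matched to arrays by their values. Probe positions are those of mm7 in the files. RefSeq tables updated names.

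The processed signal, background-subtracted and detrended within each array per the file headers, with substitute values for dim spots, was taken as log2 minus each array's 75th percentile. Spots marked as outliers were left out and spots of a probe averaged. Testing a probe in a tissue required signal well above background throughout the 3 arrays of 1 genotype or more. All probes tested were fitted with limma 3.58.1 in R 4.3.3 (lmFit and eBayes), each tissue alone, and with 4 groups over 12 arrays for the mean and the difference of tissues. Calls have a Benjamini-Hochberg adjusted p under 0.05 over all probes tested. Fold bounds divide the brighter group by the lowest signal well above background, or by the dim probe's own where that was higher. Array number limits the precision, since an exact permutation test of 3 against 3 arrays cannot give a two-sided p below 0.1. Intensity at the 75th percentile ran from 451.2 to 878 across arrays. For 2 members in kidney, among them Plcl2, 1 knockout array had no usable spot.

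Whether the letters pair arrays was checked by correlating deviations from group means. These gave 0.365, 0.152 and 0.255 for letters a, b and c in heart, all above 0.1, and 0.146, 0.0178 and -0.182 in kidney. The letters thus count as pairs in heart only, but no block entered the heart values given first; the blocked values stand beside them where a call changes. Beyond the statement of 3 mice per genotype, nothing says that a letter is one mouse, so p-values measure the spread between these samples.

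The region, its members and the gene lists were chosen with earlier results of these data known. Named genes are Pla2g7, Guca1a and Trem1, members called, members apart in both tissues, the 6 nearest tested genes on each side, and list members or genes with discordant probes. Ptchd4 per tissue, Trim10, Trim15, Spats1, Treml4, Cul7, Clic5, Crip3, Satb1, Mocs1 and Zfp318 were added after their values were seen. The fits with slide as a random block and without knockout hearts a and b were also chosen after seeing the data. The tests were also tried on simulated data, built from the means and spreads of these arrays.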

Additional observations from a re-analysis of the deposited data

How the results depend on the processing

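In heart, where 2 members were called (0.47% of all probes), 4 were called with median scaling (0.627%) and 1 with sex as a covariate (0.321%). The count was 0 with normexp, without the filter on dim probes, with only probes above background on every array, or with the replicate block. In these 0.103% to 0.367% of all probes were called. Without 1 array the heart count ran from 0 to 25, beside 0.103% to 11.0% of all probes. In kidney, with none called (0.0969% of all probes), it was 2 with median scaling (0.465%) and 1 with sex (0.205%). It was 4 with all 12 arrays in one fit (0.376%) and 0 to 1 without 1 array (0.00388% to 0.298%). There the fit with sex gives the same values as the fit without knockout kidney a. For the mean of both tissues, with 8 called, it was 0 with normexp, 4 without the filter, 2 above background on every array, 3 with the replicate block, 2 with sex, 3 with slide as a random block, 5 without knockout hearts a and b, and 3 to 15 without 1 array. Ppp1r11 and Guca1a kept their call in each of these except normexp and, for Guca1a, the filter of every array, where it was not tested. For the difference of tissues, with none called, it was 2 with quantile normalization, 3 with median scaling and 0 to 19 without 1 array. Members without overlap numbered 71 to 111 in heart without 1 array (all probes 27.7% to 54.4%), and in kidney 23 with normexp (11.4%, all probes 14.0%) and 55 to 87 without 1 array (all probes 27.2% to 39.9%). Normexp turned the means of Ptchd4 to 0.24 and of 1700001C19Rik to 0.26. The cause of these shifts was not tested. The replicate block called 0 members in kidney (0.0155% of all probes) and for the difference of tissues (78 of 24180 probes), where none had been called. Among single probes named, 1817 values kept direction and side of the threshold, 110 moved, 103 lost and 26 gained a call, and 2 reversed.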
